A study of Mus musculus with 8 samples.

Results

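The 7 genes described here, Hmgcs1, Idi1, Fdft1, Sqle, Cyp51, Dhcr7 and Srebf2, belong to cholesterol synthesis and its control. They were chosen by gene name from the 32567 genes of the RNA-seq count table, and all 7 were found. The table holds 4 mRNA libraries, 1 per condition: mouse embryonic stem cells (ESC) and RA-DIFF cells, each of them wild-type or derived from a huntingtin-null Hdhex4/5/ex4/5 line, in which both alleles of Htt, the mouse orthologue of the Huntington's disease gene, are inactivated. ESC were grown with serum and leukemia inhibitory factor, on feeder fibroblasts or on gelatin. RA-DIFF cells came from embryoid bodies (EBs) that were treated with retinoic acid (RA), dissociated and briefly plated. With 1 line of each genotype and 1 library per condition, the effect of the Htt allele cannot be told apart from other differences between lines or cultures, and no p-value is given.

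Cholesterol is built from acetyl-CoA. The mevalonate arm of the pathway makes isoprenoid units, squalene synthase joins them into squalene, and the sterol arm closes the rings and trims the product to cholesterol. The transcription factor SREBP2, encoded by Srebf2, is held in the endoplasmic reticulum with the escort protein SCAP while sterols are plentiful. When sterols run low it is cut free and activates nearly all genes of the pathway through sterol regulatory elements, commonly beside binding sites of NF-Y and Sp1. Neural cells make most of their own cholesterol, since lipoproteins of the blood do not cross into the brain.

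The 7 genes lie on 5 chromosomes of GRCm38, at the positions given in the count table. Hmgcs1 (ENSMUSG00000093930), the cytosolic HMG-CoA synthase at the head of the mevalonate arm, lies at chr13:119690462-119708086 on the plus strand. Idi1 (ENSMUSG00000058258), the isopentenyl diphosphate isomerase, lies on the same chromosome at chr13:8885501-8892451, plus strand. Fdft1 (ENSMUSG00000021273), which encodes squalene synthase, lies at chr14:63145153-63177793 on the minus strand. Sqle (ENSMUSG00000022351), the squalene epoxidase, lies at chr15:59315077-59331192, plus strand. Cyp51 (ENSMUSG00000001467), the lanosterol demethylase, lies at chr5:4081145-4104746 on the minus strand. Dhcr7 (ENSMUSG00000058454), the reductase that completes one branch of the sterol arm, lies at chr7:143823145-143848410, plus strand. Srebf2 (ENSMUSG00000022463) spans chr15:82147266-82205376 on the plus strand.

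The sequences before the start sites of 2 of these genes are shown because they hold the letters of a sterol regulatory element core. RefSeq (GRCm38.p6) promoter entries were at hand for 5 of the 7 genes, not for Fdft1 and Sqle. The 250 bases before each start were searched on both strands for TCACNCCA, the core of a sterol regulatory element, for CCAAT, the box bound by NF-Y, and for GGGCGG, the GC box bound by Sp1. In the sequences below, matches to any of the 3 motifs are in capitals, and no matches overlap. Bases that the later GENCODE vM21 annotation places inside the gene are left out. Its start of Srebf2, 82147181, lies before that of the count table, and 3 further GC boxes of the searched Srebf2 window lie in the bases left out.
Hmgcs1 (chr13:119690101-119690350, plus strand): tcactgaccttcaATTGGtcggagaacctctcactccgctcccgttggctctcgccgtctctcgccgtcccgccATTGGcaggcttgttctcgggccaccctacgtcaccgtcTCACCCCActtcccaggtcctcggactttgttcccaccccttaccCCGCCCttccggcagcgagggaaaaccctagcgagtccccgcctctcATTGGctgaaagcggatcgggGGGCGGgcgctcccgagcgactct
Srebf2 (chr15:82147019-82147180, plus strand): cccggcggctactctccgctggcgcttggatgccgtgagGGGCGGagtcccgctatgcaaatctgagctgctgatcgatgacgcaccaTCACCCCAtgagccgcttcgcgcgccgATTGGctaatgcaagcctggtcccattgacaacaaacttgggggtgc

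TCACNCCA was found in 2 of the 5 genes, Hmgcs1 and Srebf2, and in 3.67% of all 32817 promoter windows of that length. In Hmgcs1 the match began 137 bases before the RefSeq start and in Srebf2 162 bases before it. CCAAT or its reverse complement was found in at least 1 promoter of all 5 genes, against 33.8% of all windows, and a GC box likewise in all 5, against 32.7%. Only in Hmgcs1 and Srebf2 did a CCAAT match lie before the vM21 start of the gene, those of Idi1, Cyp51 and Dhcr7 falling inside the annotated gene. A GC box lay before that start in 4 of the 5 genes, all but Idi1. Dhcr7 had 3 annotated starts, the other 4 genes 1 each, so Dhcr7 had more windows in which a match could fall. Idi1, Cyp51 and Dhcr7 had no match to the sterol element letters in these windows, which says nothing about sites of other sequence.

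Srebf2 also carries a microRNA. The hairpin of miR-33 lies inside an intron of Srebf2, intron 16 of the 19-exon coding transcript Srebf2-201, on the same strand. The mature sequences of both arms are shown from RefSeq, with the seed (bases 2 to 8) in capitals. miR-33-5p is known to repress cholesterol export through Abca1.
miR-33-5p (chr15:82198127-82198147, plus strand): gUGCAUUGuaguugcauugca
miR-33-3p (chr15:82198167-82198188, plus strand): cAAUGUUUccacagugcaucac
The 2 arms have different seeds.

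The label check was made first with Htt. Htt reached 166 CPM (counts per 1000000 library counts, scaled with the TMM factors of edgeR) in wild-type ESC and 111 CPM in Htt-null ESC, while the RA-DIFF libraries labelled wild type and Htt-null had 73.3 and 98.7 CPM. Its ratio between genotypes, on the log2 scale, was thus -0.58 in ESC and 0.43 in RA-DIFF, so the gene went with its labels in ESC and against them in RA-DIFF. In the readable part of the study's supplementary expression table the RA-DIFF values also stand under the opposite assignment, while those of ESC do not. RA-DIFF libraries are therefore named by their labels, and values of the 7 genes with the 2 RA-DIFF labels exchanged are given beside their results. Genotype directions in RA-DIFF turn under that exchange, and contrasts between the lines in the RA comparisons are by label. The mRNA libraries held between 63617410 and 110569127 counts, so counting error is small for the 7 genes, and intervals given below cover counting error only. Markers checked the cell types: the summed level of 10 pluripotency genes was 5769 and 4851 CPM in wild-type and Htt-null ESC and 276 and 239 CPM in RA-DIFF, and that of 8 neural progenitor genes 186 and 188 CPM in ESC and 3926 and 5349 CPM in RA-DIFF, each time wild type first. Sox2, which neural progenitors also express, supplied 213 and 212 CPM of the pluripotency sum in RA-DIFF, and the other 9 genes summed to 5192 and 4355 CPM in ESC and to 63.2 and 26.4 CPM in RA-DIFF. Vim supplied 1712 and 2906 CPM of the progenitor sum in RA-DIFF. Of the 8 progenitor genes 5 were higher under the Htt-null label and 3, Pax6, Sox1 and Hes5, were lower.

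All 7 genes were abundant. Their mean levels over the 4 libraries stood above those of between 87.2% and 99.6% of the 14417 genes above the expression limit, a log2 CPM over 0 averaged over the 4 libraries, and all 7 passed that limit. Together they took 0.163% of all mRNA counts in wild-type ESC and 0.160% in Htt-null ESC. In RA-DIFF they took 0.310% under the wild-type label and 0.260% under the Htt-null label. The summed level was 1657 and 1559 CPM in ESC and 3059 and 2663 CPM in RA-DIFF, wild type first. Hmgcs1 alone supplied 29.9% and 29.1% of that sum in ESC but 47.3% and 45.2% in RA-DIFF. Without it the sum of the other 6 genes was 1161 and 1106 CPM in ESC, and 1611 and 1458 CPM in RA-DIFF.

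Levels were compared between genes per kb of exon, taken from the GENCODE vM21 annotation of the same build. Hmgcs1 was the highest of the 7 in all 4 libraries, at 107.9 and 98.7 CPM per kb in wild-type and Htt-null ESC and at 315 and 262 CPM per kb in RA-DIFF labelled wild type and Htt-null. Dhcr7 was the lowest in all 4, at 17.0, 21.3, 24.8 and 21.7 CPM per kb in the same order. The other 5 genes lay between 27.3 and 68.0 CPM per kb.

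In both ESC libraries the order per kb was Hmgcs1, Srebf2, Idi1, Fdft1, Cyp51, Sqle, Dhcr7. Fdft1 and Cyp51 did not differ beyond counting error in wild-type ESC, at 39.5 and 39.0 CPM per kb. In RA-DIFF cells labelled wild type, Srebf2 and Cyp51 were level at 68.0 CPM per kb, and Cyp51 had passed Idi1. In the library labelled Htt-null, Cyp51 (61.8), Sqle (60.7) and Srebf2 (59.4 CPM per kb) lay close together above Idi1 (43.8) and Fdft1 (33.5). Differences between these neighbours other than Srebf2 and Cyp51 were outside the counting interval, but their spread between cultures is not known.

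**Figure D1:**
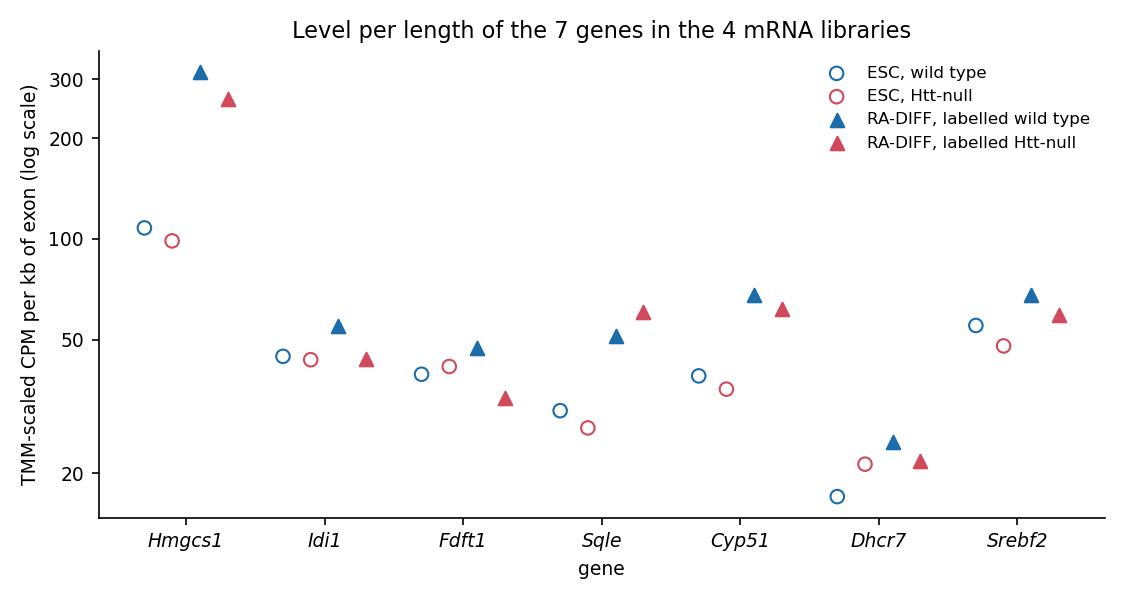
Level of the 7 genes per kb of exon (TMM-scaled CPM per kb, log axis) in the 4 mRNA libraries, with 1 point per library, circles for ESC and triangles for RA-DIFF, blue for wild type and red for Htt-null by label. Hmgcs1 stands at 98.7 to 315 CPM per kb, above the other 6 genes in every library, and Dhcr7 is the lowest in every library.

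The first comparison asked how the genes differed with Htt genotype in ESC. No gene of the 7 was called, a call being an absolute log2 ratio above 0.75 together with the expression limit. Of all 14417 genes above the limit 6.57% were called (3.93% higher, 2.64% lower in Htt-null), and a count of 0 in 7 is near that share. The 7 log2 ratios lay between -0.20 and 0.32, with a median of -0.13 against -0.041 over all genes above the limit. For 56.7% of all genes the ratio fell inside the same range.

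Dhcr7 had the largest ratio in ESC, at 99.0 CPM in wild type and 123.7 CPM in Htt-null, a log2 ratio of 0.32 (95% counting interval 0.28 to 0.37). Srebf2 had the lowest, at 396 CPM in wild type and 345 CPM in Htt-null, a log2 ratio of -0.20 (-0.23 to -0.18). Both ratios lie outside 0 by counting error and inside the range of most genes.

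The remaining 5 genes were nearer to equal. Hmgcs1 stood at 496 and 453 CPM in wild-type and Htt-null ESC (log2 ratio -0.13). For Sqle the values were 170 and 151 CPM (-0.17), and for Cyp51 172 and 157 CPM (-0.13). These 3 genes, with Srebf2, were each lower in the Htt-null library by less than the fold limit. Fdft1 had 167 and 176 CPM (0.077). Idi1, at 156 and 153 CPM, had a log2 ratio of -0.033 whose counting interval, -0.071 to 0.004, reached 0.

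After RA-differentiation again no gene of the 7 was called between the libraries labelled Htt-null and wild type, where 18.3% of all genes were called (11.0% with the Htt-null label higher, 7.37% with it lower). The ratios had a median of -0.20, against -0.006 over all genes, and 6 of the 7 were negative. With the labels exchanged the signs turn and the median becomes 0.20. The 7 ratios ranged from -0.50 to 0.24, a range that held 59.9% of all genes.

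Fdft1 differed most, with 200.5 CPM under the wild-type label and 142 CPM under the Htt-null label, a log2 ratio of -0.50 (95% counting interval -0.53 to -0.47). Idi1 had 193 and 153 CPM in the same order (-0.33). Hmgcs1 had 1448 and 1205 CPM (-0.27). All 3 were lower in the library labelled Htt-null, and none reached the fold limit.

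Sqle, the enzyme directly after squalene synthase, was the 1 gene of the 7 with the opposite sign, at 285 CPM under the wild-type label and 337 CPM under the Htt-null label (0.24). Srebf2 had 489 and 427 CPM (-0.20), nearly the same log2 ratio as in ESC. Dhcr7 had 144 and 126.5 CPM (-0.19), and Cyp51 300.2 and 273 CPM (-0.14).

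**Figure D2:**
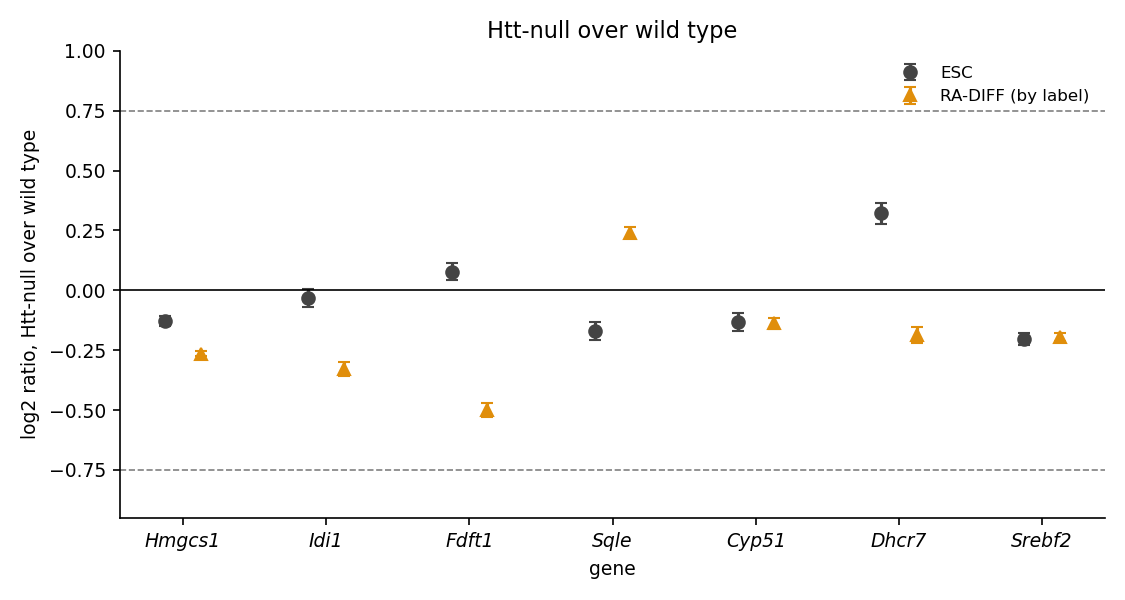
Genotype ratio (log2, Htt-null against wild type) of the 7 genes in ESC (grey circles) and in RA-DIFF by label (orange triangles), with bars for the 95% counting interval and dashed lines at the fold limit of 0.75 in either direction. All 14 ratios lie inside the dashed lines, from -0.50 for Fdft1 in RA-DIFF to 0.32 for Dhcr7 in ESC.

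Other cell types moved with this comparison. Of all genes above the expression limit, 11.0% were called higher and 7.37% lower under the Htt-null label. Of 14 fibroblast and mesenchyme markers, 13 passed that limit and 12 of them were called higher under the Htt-null label. The list summed to 846 CPM under the wild-type label and 3154 CPM under the Htt-null label. Of 12 neuron markers 9 were called lower there and 11 had a negative ratio, with sums of 3033 and 1435 CPM. Of 10 pluripotency markers 7 were called lower and Tbx3 was called higher, and Pou5f1, the defining stem cell factor, stood at 11.8 and 1.25 CPM, wild-type label first. Of 8 neural progenitor markers 3 were called lower and 1 was called higher. Of 10 visceral endoderm markers 2 passed the expression limit, 1 of them, Rbp4, was called higher under the Htt-null label (0.455 and 1.15 CPM), and the list summed to 8.69 and 13.1 CPM. In RA-DIFF no marker of any list was at 0. The part of cell makeup in the ratios of the 7 genes was not tested, and in bulk RNA fewer cells of a type and less RNA per cell cannot be told apart. In ESC, where 6.57% of all genes were called, 7 fibroblast markers were called lower and 3 neuron markers higher. Among progenitor markers 2 were called higher and 1 lower, and 1 marker each was called lower for pluripotency and visceral endoderm. Of the markers called in ESC, Dcx (5 and 8 counts, wild type first), Fabp7 (4 and 1) and Dcn (10 and 0) had no more than 10 counts in an ESC library. These 3 and Postn (66 and 27 counts, 0.761 and 0.414 CPM) lay below 1 CPM in both ESC libraries and passed the expression limit through their RA-DIFF levels. Tubb3 (log2 ratio 0.998) and Sox1 (0.81), called higher in Htt-null ESC, lie on chromosome 8, whose genes had a median ratio of 0.36 there. Gap43 and Nes, also called higher, lie on other chromosomes. The part of the chromosome 8 shift in these values was not tested. In ESC, Lum was at 0 in the wild-type library and Dcn in the Htt-null library, where a count of 0 allows up to 0.034 and 0.047 CPM.

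The comparison of RA-DIFF with ESC asked how the levels of the pathway differed between the stages. No EBs without RA were sequenced, so an effect of RA cannot be told apart from EB culture, dissociation, plating or other steps. Below, "with RA" names this comparison only, and counts of genes that rose or fell are counts of calls. In wild type by label 2 of the 7 genes rose past the fold limit and none fell, where 57.3% of all genes were called, 32.4% upward and 24.9% downward. In Htt-null by label 3 rose and none fell, where 56.3% were called, 32.9% upward and 23.5% downward. The median ratio of the 7 was 0.54 in wild type and 0.31 in Htt-null, against 0.11 and 0.16 over all genes. A share of 2 or 3 in 7 is near the share of all genes that rose. The 2 RA comparisons use different libraries throughout, but a doubt about the RA-DIFF labels touches both.

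Hmgcs1 rose most in both lines, from 496 CPM in ESC to 1448 CPM in RA-DIFF in wild type, a log2 ratio of 1.55 (95% counting interval 1.53 to 1.56) or 2.92-fold. In Htt-null it rose from 453 to 1205 CPM, 1.41 on the log2 scale (1.39 to 1.43) or 2.66-fold. Both RA-DIFF libraries stood above both ESC libraries, so the direction does not depend on which RA-DIFF library is which, and with the labels exchanged the ratios are 1.28 and 1.68.

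Cyp51 also rose in both lines, from 172 to 300.2 CPM in wild type (log2 ratio 0.80) and from 157 to 273 CPM in Htt-null (0.79). These values lie just past the fold limit of 0.75, and with the labels exchanged the wild-type ratio is 0.66 and the Htt-null ratio 0.93. With DESeq2 size factors Cyp51 no longer passed the limit in wild type, and with library sizes alone it no longer passed in Htt-null. At an assumed dispersion of 0.1 in the exact test of edgeR the calls of Cyp51 in both lines and of Sqle in Htt-null were lost, and only that of Hmgcs1 remained in either line.

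Sqle rose from 151 to 337 CPM in Htt-null (1.15), and in wild type it went from 170 to 285 CPM, a ratio of 0.74 that lay just below the limit, with a counting interval of 0.71 to 0.77 that includes it. With library sizes alone Sqle also passed in wild type. With the labels exchanged it passed in both lines, at 0.98 and 0.91. Its 2 RA-DIFF values, like those of Hmgcs1 and Cyp51, stood above both ESC values.

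The other 4 genes did not reach the limit in either line. Srebf2 had nearly equal ratios, 0.30 in wild type and 0.31 in Htt-null, and its 4 values, 396 and 345 CPM in ESC and 489 and 427 CPM in RA-DIFF, did not overlap between the stages. Dhcr7 had ratios of 0.54 and 0.032, with RA-DIFF values of 144 and 126.5 CPM just above the ESC values of 99.0 and 123.7 CPM. For Idi1 the ratios were 0.30 and 0.005, the latter with an interval of -0.031 to 0.042. Fdft1 had 0.27 and -0.31, with ESC values of 167 and 176 CPM lying between RA-DIFF values of 142 and 200.5 CPM. With the labels exchanged, the wild-type and Htt-null ratios are 0.11 and 0.50 for Srebf2, 0.35 and 0.22 for Dhcr7, -0.028 and 0.33 for Idi1, and -0.23 and 0.19 for Fdft1.

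**Figure D3:**
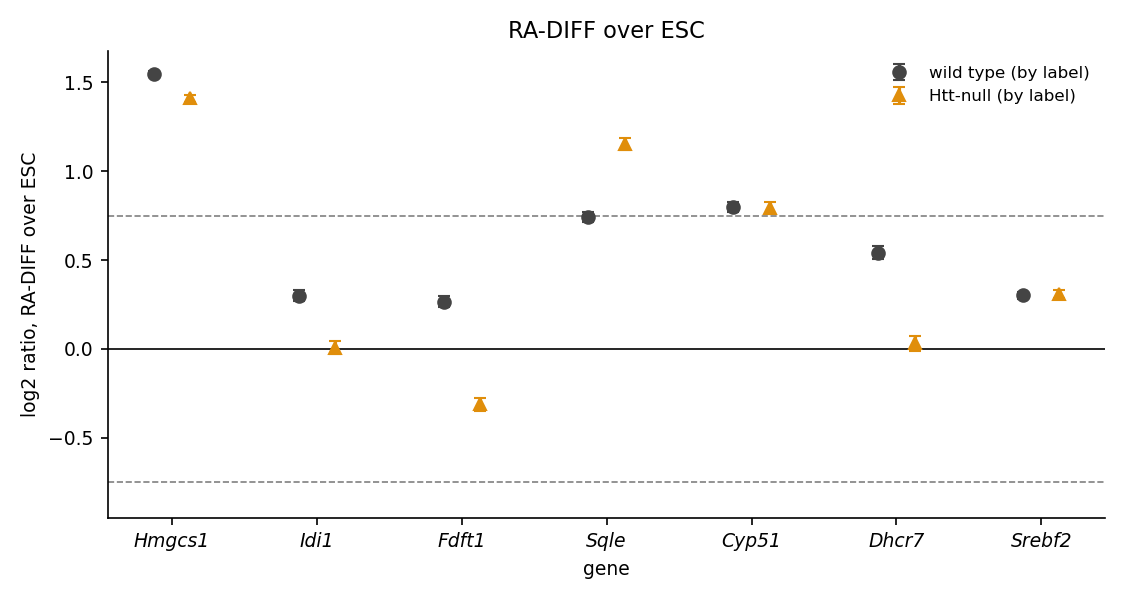
Log2 ratio of RA-DIFF over ESC for each of the 7 genes in wild type (grey circles) and Htt-null (orange triangles) by label, with bars for the 95% counting interval and dashed lines at the fold limit of 0.75. Hmgcs1 lies near 1.5 in both, Cyp51 near 0.8 in both, and Sqle, Fdft1, Dhcr7 and Idi1 differ between the lines.

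The other genes of the pathway were taken from lists chosen with earlier results of these data known. Of the 8 other genes of the mevalonate arm 7 passed the expression limit. None was called with genotype in ESC or RA-DIFF, where 6.57% and 18.3% of all genes were called. With RA, 4 of the 7 rose in wild type and 2 in Htt-null, and none fell, where 32.4% and 32.9% of all genes rose. Under exchanged labels 3 rose in wild type and 2 in Htt-null. Acat2, which makes acetoacetyl-CoA, rose by 1.36 on the log2 scale in wild type and had 0.47 in Htt-null. Mvk, mevalonate kinase, rose by 1.32 in wild type and 1.47 in Htt-null. Pmvk, the next kinase, rose by 0.92 and 0.83 in the same order. The median ratio of this list was 0.92 in wild type and 0.30 in Htt-null by label, and 0.49 and 0.43 with the labels exchanged.

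All 9 other genes of the sterol arm passed the expression limit, and none was called with genotype. With RA, 5 rose and 1 fell in wild type, and 4 rose and 1 fell in Htt-null. Under exchanged labels 4 rose in each line and 1 fell in wild type. Nsdhl, a sterol dehydrogenase, rose by 1.46 in wild type and 1.10 in Htt-null, and Hsd17b7, a sterol ketone reductase, by 1.25 in wild type and 1.24 in Htt-null. Sc5d, the desaturase before Dhcr7, rose by 1.21 in wild type and 1.60 in Htt-null. Lbr, named after its values were seen, is the gene that fell in both lines, at -0.91 and -0.98. It encodes a sterol reductase that is also the lamin B receptor of the nuclear envelope. Over the 6 enzymes among the 7 genes and both lists, 22 of 23 synthesis genes passed the expression limit, and 0 were called with genotype at either stage, against 6.57% of all genes in ESC and 18.3% in RA-DIFF. With RA 11 of the 22 rose and 1 fell in wild type, where 32.4% of all genes rose and 24.9% fell. In Htt-null 9 rose and 1 fell, where 32.9% rose and 23.5% fell. With the labels exchanged 9 rose in each line and 1 fell in wild type.

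Mvd and Msmo1, also named after their values were seen, had the largest ESC genotype ratios among the genes of these 2 lists above the expression limit, 0.66 and 0.41. They had -0.59 and -0.59 in RA-DIFF by label. Both lie on chromosome 8, as does Mbtps1, the protease that cuts SREBP first, with 0.49 in ESC and 0.18 in RA-DIFF by label. The median ratio of all 767 genes of chromosome 8 above the limit was 0.36 in ESC and -0.22 in RA-DIFF by label, against -0.041 and -0.006 over all genes. With the RA-DIFF labels exchanged, the RA-DIFF values of Mvd, Msmo1 and the chromosome median take the sign they have in ESC. That of Mbtps1 takes the opposite sign. None of the 7 genes lies on chromosome 8, and the medians of their own chromosomes lay between -0.11 and -0.064 in ESC. The part of this shift in the values of Mvd, Msmo1 and Mbtps1 was not tested.

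Among 6 genes that control SREBP, none was called with genotype in ESC and 1 was called in RA-DIFF, where 6.57% and 18.3% of all genes were. Srebf1, which encodes SREBP1, stood at 207 CPM under the wild-type label and 355 CPM under the Htt-null label (log2 ratio 0.78). Srebf2 had -0.20 in the same comparison. With RA 2 rose and 1 fell in each line, also under exchanged labels, where 32.4% and 32.9% of all genes rose and 24.9% and 23.5% fell. These counts, like that in RA-DIFF, are near the shares of all genes. Scap, the escort of SREBP, rose by 1.27 in wild type and 1.14 in Htt-null, and Srebf1 by 1.18 and 1.72. Mbtps2, the second protease, had -1.19 and -0.85.

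The 13 genes of uptake and lysosomal release all passed the expression limit. None was called with genotype in ESC. In RA-DIFF 3 were called higher and 1 was called lower under the Htt-null label, where 11.0% and 7.37% of all genes were, and the median of the list was 0.56, against -0.20 for the 7 genes above. Lrp2, a large endocytic receptor, had 56.9 and 315 CPM in the libraries labelled wild type and Htt-null (log2 ratio 2.47). Mylip, a ubiquitin ligase that removes lipoprotein receptors, had 4.38 and 8.66 CPM (0.98). Vldlr, a lipoprotein and reelin receptor, had 111 and 62.8 CPM (-0.82). These directions turn with the labels.

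With RA, 4 uptake genes rose and 3 fell in wild type, and 5 rose and 2 fell in Htt-null, near the 32.4% and 32.9% of all genes that rose and the 24.9% and 23.5% that fell. With the labels exchanged these counts were 5 and 2 in wild type and 4 and 3 in Htt-null. The largest ratios were those of Vldlr, 3.83 and 3.19 in wild type and Htt-null, and of Lrp8, the other reelin receptor, 2.84 and 3.53. The list moved both ways, with medians of 0.026 and 0.47, which become 0.57 and -0.19 under exchanged labels.

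Of 11 genes of efflux, esterification and oxysterols 9 passed the expression limit. In ESC, where 6.57% of all genes were called, 1 was called, Cyp7b1, an oxysterol hydroxylase, with 1.78 CPM in wild type and 0.874 CPM in Htt-null (log2 ratio -1.005, 95% counting interval -1.49 to -0.58). In RA-DIFF 2 were called higher under the Htt-null label, where 11.0% of all genes were. Abca1, the pump that loads cholesterol on apolipoproteins, had 24.8 and 56.9 CPM (1.20), and Abcg1, which exports cholesterol to lipoprotein particles, had 6.96 and 12.2 CPM (0.81). With RA 4 rose and 3 fell in wild type and 5 rose and 3 fell in Htt-null, where 32.4% and 32.9% of all genes rose and 24.9% and 23.5% fell. Under exchanged labels 4 rose and 4 fell in wild type and 4 rose and 3 fell in Htt-null, and the medians of -0.46 and 1.20 become 0.73 and 0.004. Abcg4, an exporter of neural cells, had 6.29 and 6.14, and Cyp46a1, the neuronal cholesterol hydroxylase, 4.80 and 4.36. Both were near 0 in ESC, at 0.199 to 0.920 CPM, and passed the expression limit only through their RA-DIFF levels. They are among the genes counted as risen in both lines.

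Of 8 fatty acid genes known as SREBP targets none was called with genotype, where 6.57% of all genes were in ESC and 18.3% in RA-DIFF. With RA 4 of the 8 rose and 1 fell in each line, also under exchanged labels, against 32.4% and 32.9% of all genes that rose and 24.9% and 23.5% that fell. Fads2, a desaturase, rose by 2.22 and 2.10 in wild type and Htt-null, Fads1 by 1.87 and 1.78, and Scd2 by 1.57 and 1.98.

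**Figure D4:**
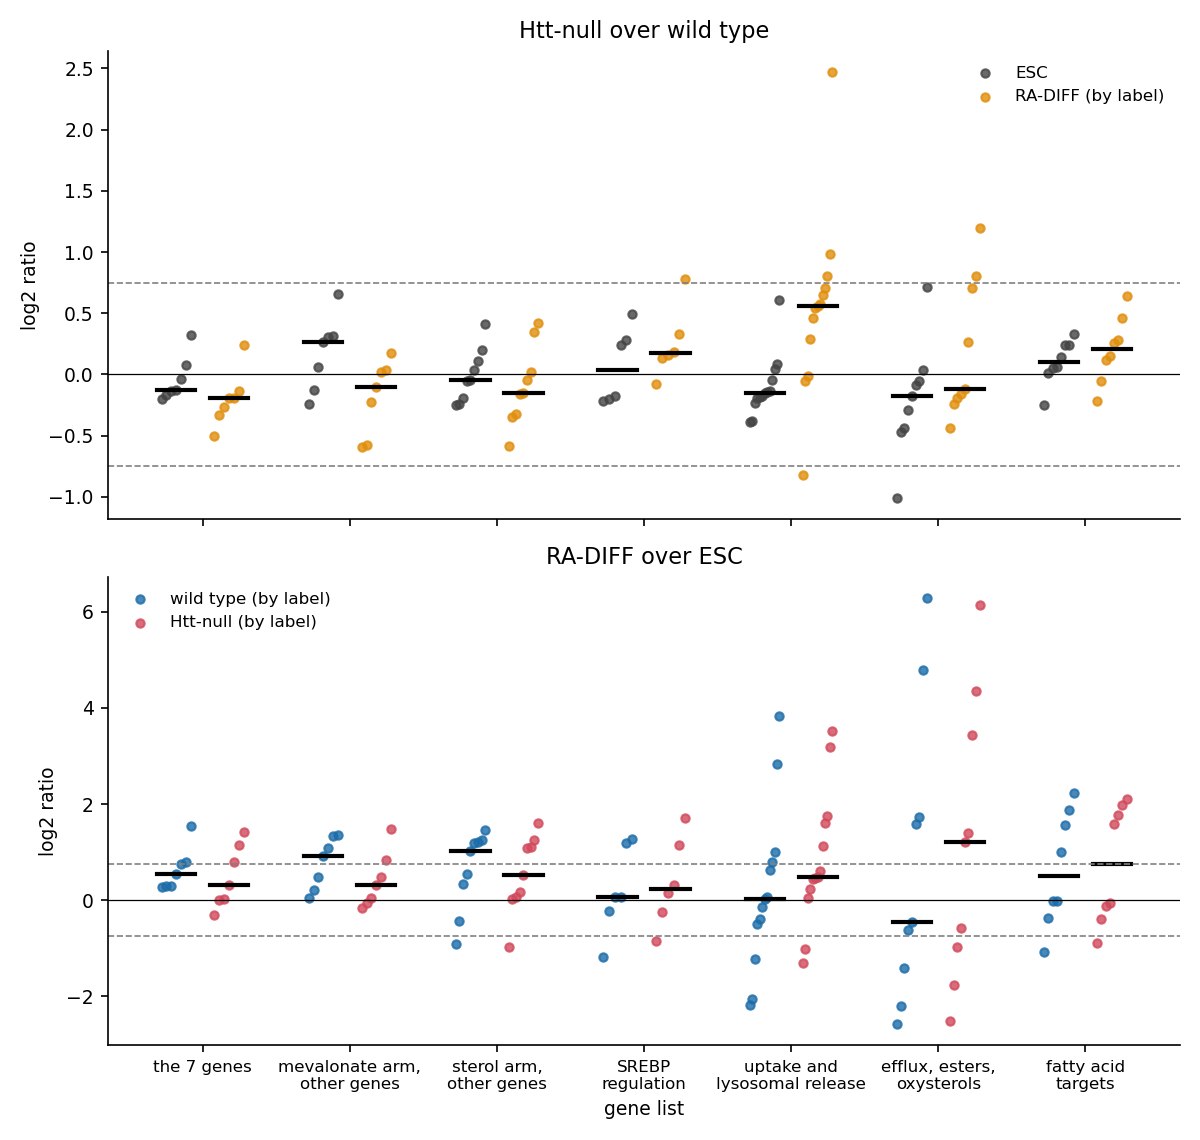
Log2 ratios of the 7 genes and of the genes above the expression limit in 6 lists of related genes, 1 point per gene, with a black bar at each list's median and dashed lines at the fold limit of 0.75. The upper panel gives Htt-null over wild type in ESC (grey) and RA-DIFF by label (orange), the lower panel RA-DIFF over ESC in wild type (blue) and Htt-null (red) by label. In the upper panel no point of the 7 genes or of the mevalonate and sterol arms passes a dashed line. In RA-DIFF 4 uptake genes, 1 gene of SREBP regulation and 2 efflux genes do, and in ESC 1 efflux gene does.

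The profile of the 7 genes over the 4 libraries was also compared with that of 9271 other genes with at least 500 counts in each library, by the Euclidean distance of centred log2 CPM from the median profile of the 7. Among the 5 nearest genes were Med8, Smap1, Mlxip and Med16, at distances of 0.13. None of these is in the pathway lists. With 4 libraries such a profile rests on few points and is given as a description. The 7 genes themselves lay farther from their own median, from 0.25 for Srebf2 to 1.06 for Hmgcs1, so the median profile does not stand for each of them.

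miR-33 was read from the small RNA libraries, 1 per condition with 11976744 to 25656673 counts. miR-33-5p had 699 counts in wild-type ESC, 972 in Htt-null ESC, 1488 in RA-DIFF labelled wild type and 911 in RA-DIFF labelled Htt-null. The counts of miR-33-3p were 110, 138, 259 and 159 in the same order, so the 5p arm was 5.73 to 7.04 times as frequent as the 3p arm. As a share of all miRNA counts, miR-33-5p stood at 54.2 CPM (95% Wilson interval 50.4 to 58.4) in wild-type ESC and 81.2 CPM (76.2 to 86.4) in Htt-null ESC. In RA-DIFF it stood at 58.0 CPM (55.1 to 61.0) under the wild-type label and 37.5 CPM (35.1 to 40.0) under the Htt-null label.

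On the TMM scale the values of miR-33-5p were 34.7, 44.2, 83.2 and 75.1 CPM. The genotype ratio was then 0.35 in ESC and -0.15 in RA-DIFF by label, neither past the fold limit, where 38.3% and 25.1% of the 650 miRNAs above the limit were called. With RA both arms passed the limit, miR-33-5p at 1.26 in wild type and 0.76 in Htt-null and miR-33-3p at 1.39 and 1.05, where 65.2% and 69.7% of the miRNAs were called. By library size alone the ratios of miR-33-5p with RA were 0.097 and -1.11, so its direction in Htt-null turned with the scaling. Htt mRNA does not check the labels of the small RNA libraries. Were the 2 RA-DIFF small RNA labels exchanged, the RA ratios of miR-33-5p would be 1.11 and 0.91 on the TMM scale and -0.53 and -0.48 by library size, turning with the scaling in both lines. TMM factors of the small RNA libraries ranged from 0.50 to 1.84, and the median ratio of all miRNAs with RA in Htt-null was -0.19 on the TMM scale and -2.03 by library size. A direction of miR-33 with RA can therefore not be given without naming the scale. The ratios of all 7 mRNAs, Srebf2 included, moved by at most 0.072 from the TMM scale to library sizes alone or to DESeq2 size factors.

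**Figure D5:**
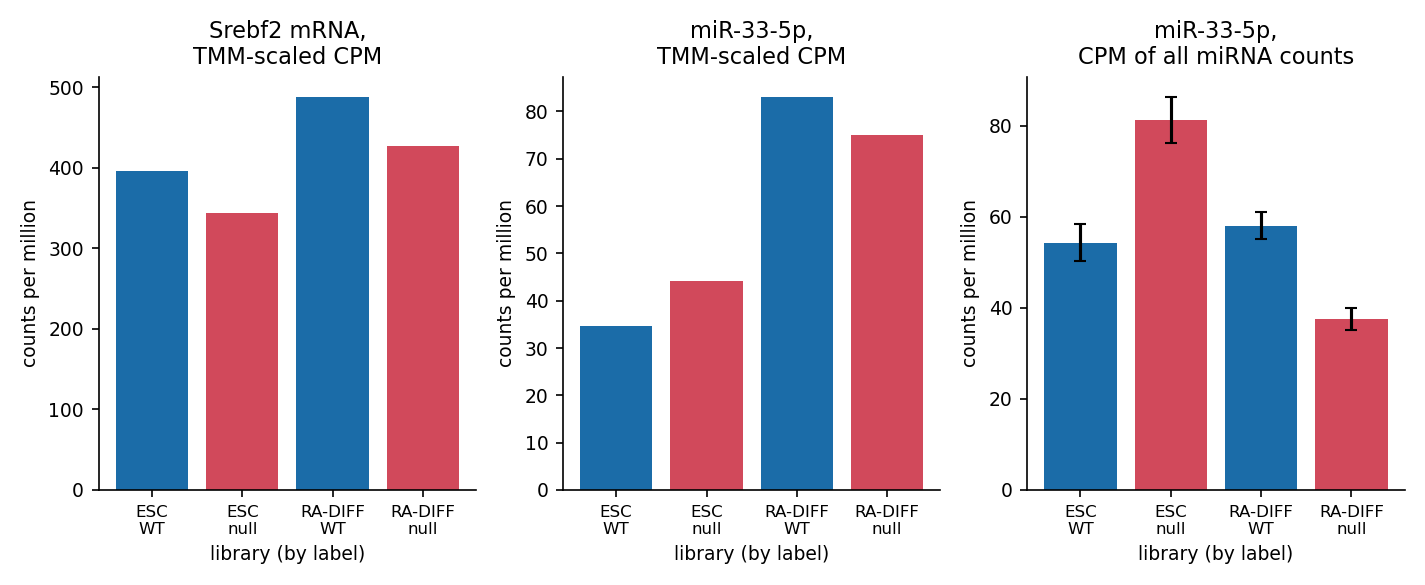
Srebf2 mRNA (TMM-scaled CPM, left) and miR-33-5p on the TMM scale (middle) and as CPM of all miRNA counts (right, bars for the 95% Wilson interval) in the libraries named by label, 1 per condition, blue for wild type and red for Htt-null. miR-33-5p is highest in RA-DIFF on the TMM scale, at 83.2 and 75.1 CPM, and highest in Htt-null ESC, at 81.2 CPM, as a share of all counts.

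Counting limits touch some of the genes. Fdft1 overlaps Ctsb on the opposite strand over 767 bases and Cyp51 overlaps Akap9 over 166 bases, and the methods name no strand option for the counting, stating default settings where nothing else is specified. Ctsb had 10565 to 25672 counts per library. Idi1 has a processed pseudogene, Gm13502, identical over 684 bases, with at most 224 counts in a library, and Fdft1 has Gm6781, 97.4% identical over 1249 bases, with at most 46. Reads that fit both copies could have been lost or placed on either. Dhcr7 shares stretches of 201 to 227 bases with transcripts of other genes.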

How the data were processed

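Poly-A-plus, strand-specific (dUTP) paired-end mRNA libraries and small RNA libraries were made by the authors, 4 of each and 1 per condition. The authors aligned mRNA reads to GRCm38.p4 with TopHat2 2.0.14 (Gencode annotation), counted them per gene with HTSeq 0.6.1 and deposited raw counts. They trimmed small RNA reads with cutadapt 1.3, mapped them to miRBase with BWA 0.7.5a-r418 and deposited raw counts of uniquely mapped reads per mature miRNA.

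From these counts, TMM factors over the 4 libraries of an assay and log2 CPM with a prior count of 2 were computed with edgeR 4.0.16 in R 4.3.3, after a run on simulated data. A gene was called at an absolute log2 ratio above 0.75 and a log2 CPM averaged over the 4 libraries above 0. With 1 library per condition no quasi-likelihood test was fitted. A model with additive terms for line and stage was not run, since it would take the stages as replicates. Intervals are Clopper-Pearson for ratios and Wilson for shares, both at 95%. PCR copies are not independent molecules, so they cover counting error only. A count of 0 allows up to 3 counts. Promoters, miRNAs and start sites came from RefSeq, exon lengths from GENCODE vM21. Copies were transcripts with at least 90% identity over 200 bases (blastn).

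Members and lists were chosen with earlier results of these data known. The named genes are the 7 members, Htt, list genes called between genotypes, the 2 list genes with the largest ratio in each RA comparison (100 counts or more in the library where they were higher), the 5 nearest profiles and both arms of miR-33. Genes of other rules are said to be so. Alternatives were other scaling (library size, DESeq2 1.42.0), a prior count of 0.25, no expression limit, a fold limit of 1, edgeR's exact test at assumed dispersions of 0.01 and 0.1, and exchanged RA-DIFF labels. Some genes under this rule are counted but not reported by name here.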

Additional observations from a re-analysis of the deposited data

Results flagged for a closer look

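Opposite signs of a ratio in 2 settings brought up 4 results, and none of these differences was tested, since each ratio rests on 1 library per condition. Fdft1 had a genotype log2 ratio of 0.077 in ESC and -0.50 in RA-DIFF by label, a difference of -0.58. Its RA ratio was 0.27 in wild type and -0.31 in Htt-null, which is the same difference of -0.58 seen from the other side, since both are formed from the same 4 values. Sqle, the next enzyme, went the other way, with -0.17 in ESC and 0.24 in RA-DIFF, a difference of 0.41. Dhcr7 had 0.32 in ESC and -0.19 in RA-DIFF, a difference of -0.51. With the RA-DIFF labels exchanged the RA-DIFF genotype ratios become 0.50 for Fdft1, -0.24 for Sqle and 0.19 for Dhcr7, each with the same sign as in ESC. Those of Hmgcs1, Idi1, Cyp51 and Srebf2 become 0.27, 0.33, 0.14 and 0.20, opposite in sign to -0.13, -0.033, -0.13 and -0.20 in ESC. The RA ratios of Fdft1 stay opposite, at -0.23 in wild type and 0.19 in Htt-null, and those of Idi1 become so, at -0.028 and 0.33.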

How the results depend on the processing

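Each condition has 1 library, so none could be left out. A fit with the line as a block was not run. The count of 0 genes of the 7 called with genotype held at both stages under every alternative run. With RA in wild type, 1 gene in place of 2 was called with DESeq2 size factors, with a fold limit of 1 and at a dispersion of 0.1, and 3 by library size alone. In Htt-null 1 in place of 3 was called at a dispersion of 0.1, and 2 with a fold limit of 1 and by library size alone. The exchange of labels for the pathway lists and for miR-33 was added after the data were seen. Medians of the 7 genes moved, in the order ESC genotype, RA-DIFF genotype, wild type with RA and Htt-null with RA, from -0.13, -0.20, 0.54 and 0.31 to -0.073, -0.25, 0.58 and 0.24 by library size alone. With DESeq2 size factors those of ESC genotype and of wild type with RA moved to -0.16 and 0.49. With exchanged RA-DIFF labels the last 3 became 0.20, 0.35 and 0.50.

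Genes called over the whole table numbered 947, 2641, 8260 and 8122 in the same order. Without the expression limit they numbered 8160, 8588, 18836 and 19512. A fold limit of 1 gave 474 and 1760 for the genotype comparisons, and a dispersion of 0.1 gave 158, 1072, 5355 and 5205. By library size alone miR-33-5p had ratios of 0.58, -0.63, 0.097 and -1.11 and miR-33-3p, for the last 3 comparisons, -0.62, 0.24 and -0.81. With exchanged RA-DIFF labels the last 3 ratios of miR-33-5p became 0.15, 1.11 and 0.91, and by library size with exchanged labels 0.63, -0.53 and -0.48 for miR-33-5p and 0.62, -0.38 and -0.19 for miR-33-3p. The cause was not tested. The ratio of Idi1 or Dhcr7 changed sign in 4 of the 56 values with other scaling, each time within 0.066 of 0. Depth does not limit the 7 mRNAs, while miR-33-3p rests on 110 to 259 counts.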
